A study of Homo sapiens with 3 samples.

Results

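The transcripts examined here were those of 33 genes of cholesterol and fatty acid synthesis, in HepG2 cells, a human hepatocellular carcinoma cell line. The genes were taken by symbol, as enzymes of sterol synthesis, the proteins that control them, and enzymes of fatty acid synthesis, elongation and desaturation. STARD4 and NPC1L1, which handle sterols and do not make them, were also included. All 33 were found among the 25270 gene rows of the deposited data. There were 3 libraries of total RNA with 1 library per condition. The first was of untreated parental HepG2, and the second of HepG2/metR, a line selected from HepG2 for survival under more than 5 months of metformin. The third was of HepG2/metR after 24 h in 40 mM oxamate, which blocks lactate dehydrogenase. Whether HepG2/metR is 1 clone is not given in the sources used here. The study used HepG2/metR as a model of high glycolysis and lactate output and oxamate as the means to lower lactate. The study's methods give a base medium with fetal bovine serum, which brings lipoprotein cholesterol. They do not state whether metformin was in the medium of HepG2/metR when RNA was taken. With n = 1 in each condition, no difference below has a replicate check, and no p-value is given. Levels are in FPKM, fragments scaled by transcript length and by the library's fragments, so that genes can be compared with each other. Where 3 levels are given for a gene they are in the order parental, HepG2/metR, oxamate-treated. Changes are differences of log2(FPKM + 1), a scale that understates the change of low genes. A gene was called changed at 2-fold between HepG2/metR and parental cells and at 1.5-fold with oxamate, the thresholds of the study's methods, among the 12192 genes whose FPKM averaged 1 or more over the libraries. All 33 genes passed that filter.

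Cholesterol is made from acetyl-CoA by way of mevalonate, farnesyl diphosphate, squalene and lanosterol. Fatty acids are made from the same acetyl-CoA by carboxylation to malonyl-CoA and repeated condensation, and are then elongated and desaturated. Both branches are switched on by the sterol regulatory element-binding proteins, encoded by SREBF1 and SREBF2. SCAP escorts these proteins out of the endoplasmic reticulum when sterols are scarce, and the INSIG proteins hold SCAP back when sterols are plentiful. The liver is a main site of both branches, and hepatocytes also export the lipid in lipoproteins. INSIG1 and many genes of the enzymes are themselves targets of these factors, whose binding to promoters is helped by NF-Y, a factor that recognises CCAAT.

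The RefSeq promoter windows (GRCh38.p14, 250 bases before to 50 bases after a transcription start) were searched because the genes share these regulators. Windows were found for 29 of the 33 genes, 39 windows in all, and none for ACAT2, FDFT1, SQLE and FASN. The sequences that follow are the 250 bases before the start of MVD, SCD, INSIG1 and SREBF2. MVD and SCD had the largest differences of the sterol and the fatty acid genes between HepG2/metR and parental cells. INSIG1 was the only gene past 2-fold in the opposite direction. The SREBF2 window was the only one of the 39 with TCACNCCAC or CACCCCAC, the sterol regulatory element cores searched for. Capitals mark CCAAT on either strand (ATTGG when read from the other strand) and, in SREBF2, the overlapping cores TCACNCCAC and CACCCCAC. The windows lie at chr16:88663092-88663341 on the minus strand for MVD, chr10:100346983-100347232 on the plus strand for SCD, chr7:155297628-155297877 on the plus strand for INSIG1 and chr22:41832855-41833104 on the plus strand for SREBF2.
MVD: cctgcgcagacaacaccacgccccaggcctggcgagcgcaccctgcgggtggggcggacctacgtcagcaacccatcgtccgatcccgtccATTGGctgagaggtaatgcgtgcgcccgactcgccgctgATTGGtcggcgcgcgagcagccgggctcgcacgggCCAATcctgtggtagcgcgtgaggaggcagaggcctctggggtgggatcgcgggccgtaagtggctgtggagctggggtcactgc
SCD: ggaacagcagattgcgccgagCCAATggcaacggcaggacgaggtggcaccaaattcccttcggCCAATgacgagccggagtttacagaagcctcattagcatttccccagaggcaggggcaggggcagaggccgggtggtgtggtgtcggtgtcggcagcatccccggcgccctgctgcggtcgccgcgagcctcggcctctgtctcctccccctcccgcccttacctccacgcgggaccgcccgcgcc
INSIG1: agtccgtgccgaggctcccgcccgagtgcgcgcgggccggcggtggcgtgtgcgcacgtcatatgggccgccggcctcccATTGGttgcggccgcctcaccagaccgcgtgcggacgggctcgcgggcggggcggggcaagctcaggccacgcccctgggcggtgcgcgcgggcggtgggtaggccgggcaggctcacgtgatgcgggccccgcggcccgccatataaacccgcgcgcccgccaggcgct
SREBF2: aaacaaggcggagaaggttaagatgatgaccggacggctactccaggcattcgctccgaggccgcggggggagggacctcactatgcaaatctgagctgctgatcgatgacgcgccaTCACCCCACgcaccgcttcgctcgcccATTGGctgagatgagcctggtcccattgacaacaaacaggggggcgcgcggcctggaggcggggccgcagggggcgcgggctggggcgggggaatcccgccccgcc

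CCAAT was present on either strand in 25 of the 39 windows of the lipid synthesis genes (64.1%), against 34.7% of the 13336 windows of all genes kept. By gene, 22 of 29 had it in a window (75.9%), against 43.6% of 9101 genes kept. It occurred at 3 places in the MVD window, at 2 in that of SCD and at 1 in those of INSIG1 and SREBF2. The core TCACNCCAC was found in 1 of 39 windows (2.56%) and in 1.09% of the windows of genes kept. In the SREBF2 window it began at position -133 from the start, and a CCAAT on the other strand at -106. The overlapping core CACCCCAC was found in the same window only, and in 2.62% of the windows of genes kept. The E-box CACGTG was in 6 of 39 windows (15.4%, against 9.35%) and the GC box GGGCGG in 32 of 39 (82.1%, against 66.3%). By gene the shares were 17.2% against 12.7% for the E-box and 89.7% against 77.8% for the GC box. The genes without CCAAT in any window were PMVK, CYP51A1, SREBF1, SCAP, INSIG2, FADS1 and ELOVL6. Genes with several windows were counted once for each in the counts by window, and a match of letters is a description and not a binding site. Sterol regulatory elements of other sequence were not searched for, so a window without these cores may still hold such an element.

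Before the lipid genes, the libraries were compared by markers of the labelled tissue. All 10 hepatocyte markers examined (ALB, APOA1, APOA2, TTR, AFP, SERPINA1, HNF4A, FGB, TF and AHSG) were past 2-fold lower in HepG2/metR, and their summed levels were 33140, 14.2 and 11.3 FPKM. HNF4A, a master regulator of the hepatocyte state, was listed at 68.7, 0.0156 and 0.0153 FPKM. TTR was at 0 in both HepG2/metR libraries and APOA1 at 0 in the untreated one. SERPINA1 was the highest of the 10 there, at 1709, 11.2 and 7.10 FPKM, followed by FGB at 163, 1.301 and 2.26 FPKM. The keratins KRT8 and KRT18, which hepatocytes and many other epithelia share, summed to 1685, 1683 and 1269 FPKM. Of 5 mesenchymal markers VIM (1.23, 1576 and 1140 FPKM) and SPARC (27.4, 552 and 376 FPKM) were higher in HepG2/metR. FN1 (1503, 45.7 and 93.7 FPKM) and TGFBI (155, 1.37 and 0.687 FPKM) were lower, and CDH2 differed by -0.08 on the log2 scale. In bulk RNA, fewer cells of a type and less RNA per cell cannot be told apart. The markers of the labelled liver cell were thus far lower in the HepG2/metR libraries, 8 of them below 1 FPKM in both, and the part of this difference in the lipid genes was not tested. That HepG2/metR derives from HepG2 is taken from the labels and was not checked here, which limits what each difference from parental cells means. Between HepG2/metR and parental cells, the selection and any other difference between the cultures cannot be told apart. The number of reads is unknown. The FPKM values summed to between 473133 and 561676 per library. Relative to the parental library, the lowest values put the depth of the HepG2/metR library at 1.22 and that of the treated one at 1.24.

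In HepG2/metR cells, 16 of the 33 genes were at least 2-fold lower than in parental HepG2 cells (48.5%), and INSIG1 alone was at least 2-fold higher (3.03%). Of all genes kept, 17.6% were lower and 16.6% higher by the same rule. Over the 33 genes this change had a median of -0.95 on the log2 scale, and over all genes kept 0.01. The 33 genes' summed levels were 2097, 1010 and 776 FPKM, or 0.373%, 0.189% and 0.164% of each library's total. With oxamate, 6 of the 33 genes were at least 1.5-fold lower (18.2%) and 0 were higher, where 3.82% of all genes kept were lower and 4.31% higher. The median log2 change with oxamate was -0.29, against 0.02 for all genes kept. After scaling all libraries to 1 common total, 3 of the 33 genes were lower with oxamate, and the calls among all genes were 192 lower and 1184 higher in place of 466 and 525. Scaled to 10 reference genes, the count was also 3, with 150 lower and 1434 higher among all genes. The untreated HepG2/metR library enters both comparisons, and an error in it would move a gene in opposite directions in them.

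**Figure D1:**
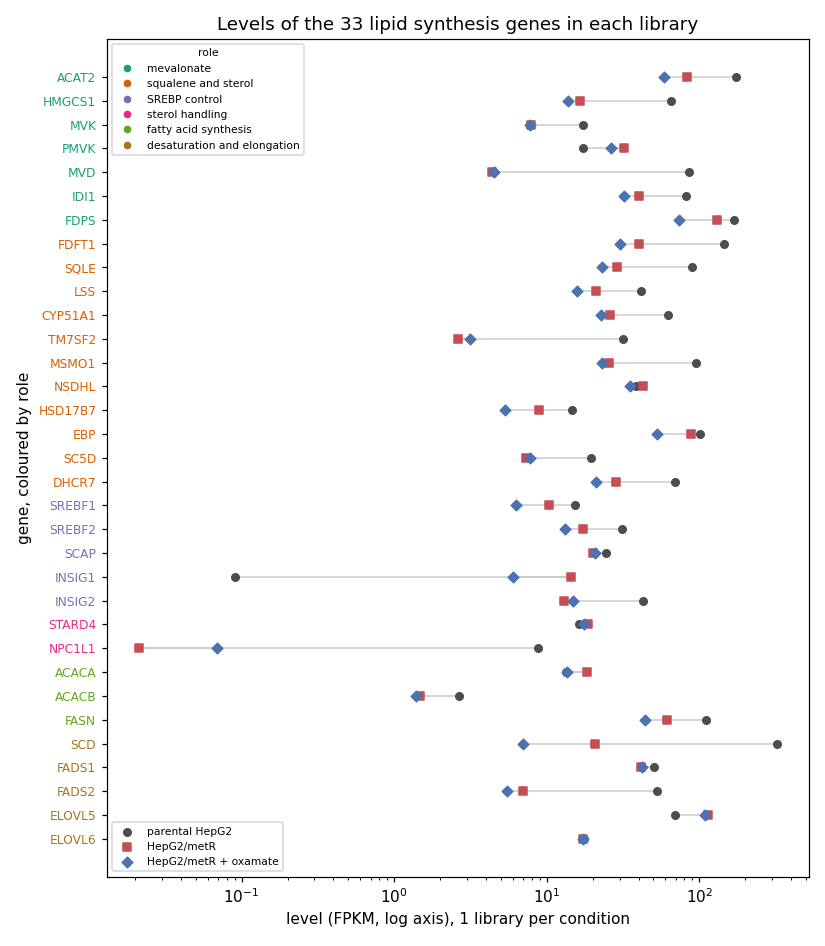
Level of each of the 33 genes in FPKM on a log axis, with circles for parental HepG2, squares for HepG2/metR and diamonds for HepG2/metR given oxamate (1 library each), and gene names coloured by role. The circle lies furthest right for most sterol genes, SCD runs from 321 to 7.04 FPKM, and INSIG1 has its circle far to the left at 0.0909 FPKM.

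Of the 7 enzymes examined between acetyl-CoA and farnesyl diphosphate, 5 were called lower in HepG2/metR and 0 higher, with a median log2 change of -1.04. The shares over all genes kept were 17.6% lower and 16.6% higher. MVD, which decarboxylates mevalonate diphosphate to the isoprenoid unit, was listed at 85.6, 4.41 and 4.53 FPKM. The parental library stood far above both HepG2/metR libraries, with a ratio of 19.4 and a log2 change of -4.00, the largest difference of this group. HMGCS1, the cytosolic synthase that makes HMG-CoA, was at 65.4, 16.5 and 13.7 FPKM and had a log2 change of -1.93. The remaining called genes were close to the threshold. ACAT2, the cytosolic thiolase that joins acetyl-CoA units, was at 174, 82.8 and 58.3 FPKM (log2 change -1.06). MVK, mevalonate kinase, was at 17.2, 7.85 and 7.76 FPKM (log2 change -1.04). IDI1, the isomerase of isopentenyl diphosphate, was at 82.0, 40.3 and 32.3 FPKM, with a log2 change of -1.01. These 3 genes passed by less than 0.07 and were no longer called under upper-quartile scaling or after scaling to a common total. ACAT2 also shares exon sequence on the opposite strand with TCP1 and SOD2 in GENCODE 29, MVK with MMAB and IDI1 with IDI2-AS1, and without stated strand use in the counting such reads cannot be told apart.

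PMVK, phosphomevalonate kinase, went the other way and was at 17.4, 32.2 and 26.3 FPKM, a log2 change of 0.85 that did not reach 2-fold. The kinases on either side of one intermediate were thus at nearly the same level in parental cells, with MVK at 17.2 FPKM, and PMVK was the higher of the pair in both HepG2/metR libraries. FDPS, the synthase of farnesyl diphosphate, was at 170 FPKM in parental and 131 in HepG2/metR, a log2 change of -0.37, and ranked first among the 33 genes in HepG2/metR. With oxamate it was at 74.0 FPKM, with a log2 change of -0.81 from the untreated library. It was the only one of the 7 called lower with oxamate, beside 3.82% of all genes kept. The ratio of FDPS to MVD was 1.98, 29.7 and 16.4 in the same order of libraries. FDPS has 8 pseudogenes by name in GENCODE 29, and reads shared with them could have been split. Of these, FDPSP2 was listed at 0 FPKM in all 3 libraries, and the others had no level in the data.

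The squalene and sterol steps had 7 of 11 genes called lower in HepG2/metR, beside 17.6% of all genes kept, and their median log2 change was -1.26. TM7SF2, a sterol reductase of the endoplasmic reticulum, was listed at 31.5, 2.62 and 3.13 FPKM. Its log2 change was -3.17, and the parental library stood 12.04 times as high as HepG2/metR and 10.1 times as high as the treated library. FDFT1, squalene synthase and the first enzyme committed to sterols, was at 146, 40.5 and 30.04 FPKM, with a log2 change of -1.82. MSMO1, the methylsterol oxidase, was at 94.7, 25.6 and 23.1 FPKM, with a log2 change of -1.85. SQLE, squalene epoxidase, a rate-limiting enzyme of the later steps, was at 89.3, 29.1 and 22.9 FPKM, with a log2 change of -1.59. In each of these genes the parental library was at least 3 times as high as either HepG2/metR library. SC5D, the sterol desaturase, was at 19.4, 7.34 and 7.83 FPKM (log2 change -1.29). DHCR7, the reductase that completes cholesterol from its dehydro precursor, was at 69.1, 28.3 and 21.1 FPKM (log2 change -1.26). CYP51A1, the lanosterol demethylase, was at 62.6, 25.99 and 22.6 FPKM, with a log2 change of -1.24, and GENCODE 29 lists 2 protein-coding genes that share exon bases with it on the same strand.

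The other 4 genes of these steps were not called between HepG2/metR and parental cells. LSS, lanosterol synthase, was at 41.6, 21.01 and 15.8 FPKM, and its log2 change of -0.95 missed the threshold by 0.05. Scaled to the 10 reference genes it was -1.26 and past it, against -0.81 under upper-quartile scaling and -0.88 on a common total. The levels of the reference genes were themselves higher in HepG2/metR in 7 of 10 cases (median log2 change 0.29). HSD17B7, a sterol ketoreductase, was at 14.6, 8.93 and 5.35 FPKM, with log2 changes of -0.65 in HepG2/metR and -0.65 with oxamate, and was called in the second comparison only. Its transcribed pseudogene HSD17B7P2 was at 3.77, 0.714 and 0.954 FPKM. NSDHL, which acts in removing the C4 methyl groups of sterols, and EBP, the sterol isomerase, are both on the X chromosome. Their levels in HepG2/metR were near those of parental cells. NSDHL was at 38.6, 42.9 and 35.0 FPKM. EBP was at 101, 87.9 and 53.0 FPKM, and its log2 change of -0.72 with oxamate was past 1.5-fold. EBP and HSD17B7 were the 2 genes of these 11 called lower with oxamate, beside 3.82% of all genes kept. Neither remained past 1.5-fold after scaling to a common total, at -0.55 for EBP and -0.50 for HSD17B7.

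**Figure D2:**
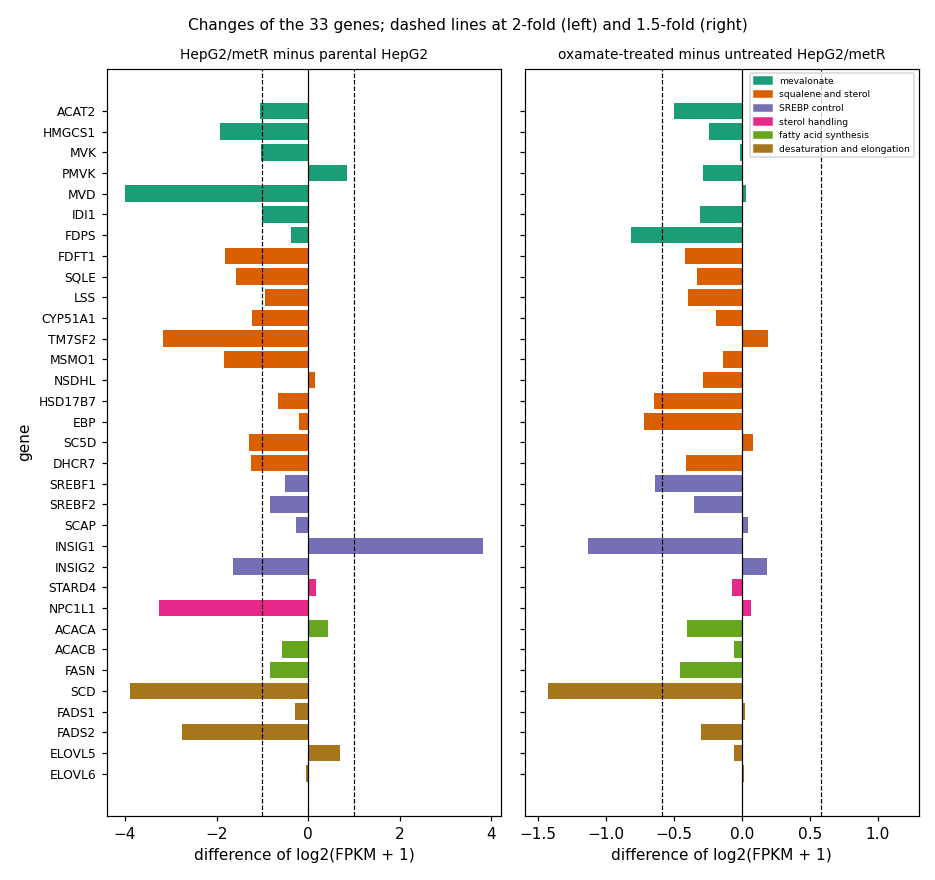
Difference of log2(FPKM + 1) for each of the 33 genes, HepG2/metR minus parental HepG2 on the left and oxamate-treated minus untreated HepG2/metR on the right, with bars coloured by role and dashed lines at the 2-fold and the 1.5-fold threshold. On the left 16 bars pass the lower line and INSIG1 passes the upper line at 3.82, and on the right 6 bars pass the lower line, SCD furthest at -1.43.

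Of the 5 controllers of the pathway, 1 was called lower (INSIG2) and 1 higher (INSIG1) in HepG2/metR, beside 17.6% lower and 16.6% higher of all genes kept. SREBF2, whose product mainly drives sterol genes, was at 31.4, 17.2 and 13.3 FPKM, with log2 changes of -0.83 and -0.35, neither of them called. Scaled to the 10 reference genes, its change in HepG2/metR was -1.14, past 2-fold, against -0.69 under upper-quartile scaling and -0.76 on a common total. SREBF1, whose product mainly drives fatty acid genes, was at 15.3, 10.4 and 6.29 FPKM. Its log2 change was -0.52 in HepG2/metR and -0.64 with oxamate, past 1.5-fold by 0.06, and -0.49 after scaling to a common total. In GENCODE 29 it shares 556 exon bases with RAI1 on the opposite strand. The ratio of SREBF1 to SREBF2 was 0.486, 0.602 and 0.474, so that SREBF2 was the higher of the pair in every library. SCAP was at 24.6, 20.2 and 20.9 FPKM, with log2 changes of -0.27 and 0.04.

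The INSIG genes differed in opposite directions between HepG2/metR and parental cells. INSIG1, which is itself a sterol-regulated target, was listed at 0.0909, 14.4 and 6.002 FPKM. It was near zero in the parental library alone, at percentile 5.13 of all genes kept, and its log2 change of 3.82 was the only call in the higher direction. With a level this close to zero in parental cells and the read number unknown, the size of the ratio is not well determined. INSIG2, whose product has the same role but whose gene is controlled differently, was at 42.7, 13.005 and 14.9 FPKM, a log2 change of -1.64 in HepG2/metR. INSIG1 made up 0.212%, 52.5% and 28.7% of the summed INSIG level. The sum itself was 42.8, 27.4 and 20.9 FPKM. With oxamate INSIG1 was 2.39 times lower, a log2 change of -1.13, while INSIG2 changed by 0.18.

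Of the genes that handle sterols, STARD4, a carrier of cholesterol within the cell, was at 16.3, 18.5 and 17.5 FPKM. NPC1L1, which takes up cholesterol at the cell surface in the intestine and in human hepatocytes, was at 8.75 FPKM in parental cells and at 0.0212 and 0.0691 FPKM in the HepG2/metR libraries. It was thus nearly undetected in both, and its log2 change was -3.26. Its 2 HepG2/metR levels are too close to zero for a comparison with oxamate.

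The 3 enzymes of fatty acid synthesis proper were not called in either comparison on the deposited scale. FASN, the synthase that makes palmitate, was at 110, 61.1 and 44.2 FPKM, with log2 changes of -0.84 and -0.46. The first was -1.16 and past 2-fold when scaled to the 10 reference genes, against -0.69 under upper-quartile scaling and -0.77 on a common total. ACACA, the cytosolic acetyl-CoA carboxylase, was at 13.3, 18.3 and 13.6 FPKM, with log2 changes of 0.43 and -0.40, so that the parental and the oxamate-treated libraries were close in level. ACACB, the carboxylase at mitochondria that restrains fatty acid oxidation, was the lowest of the 3 in every library, at 2.67, 1.48 and 1.38 FPKM. ACACA was 4.99 times as high as ACACB in parental cells and 12.3 times in HepG2/metR.

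Desaturation showed the largest changes of the fatty acid branch. SCD, the delta-9 desaturase that makes oleate, was listed at 321, 20.7 and 7.04 FPKM. It was the highest of the 33 genes in parental cells and was 15.6 times lower in HepG2/metR and a further 2.93 times lower with oxamate, with log2 changes of -3.90 and -1.43. It was called lower in each comparison. The ratio of SCD to FASN was 2.92, 0.338 and 0.159. The log2 change of SCD with oxamate ranged from -1.45 to -1.22 over the 4 scalings, past 1.5-fold in each.

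FADS1 and FADS2, the delta-5 and delta-6 desaturases that act in sequence on polyunsaturated fatty acids, lie next to each other in opposite orientation. FADS2 was at 53.0, 7.01 and 5.49 FPKM, with a log2 change of -2.75. FADS1 was at 50.6, 41.6 and 42.3 FPKM, with a log2 change of -0.28. The pair was nearly level in parental cells, and FADS1 was 5.93 times as high as FADS2 in HepG2/metR. In GENCODE 29 the genes share 490 exon bases on opposite strands. Of the neighbours, FADS3 was at 7.54, 33.9 and 38.1 FPKM (log2 change 2.03 in HepG2/metR), MYRF at 19.2, 2.61 and 3.36 FPKM (-2.49), FEN1 at 60.5, 77.3 and 52.7 FPKM (0.35) and TMEM258 at 264, 334 and 231 FPKM (0.34). BEST1 was below 0.07 FPKM in all libraries. The genes around FADS2 therefore differed in both directions.

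The elongases did not reach the threshold. ELOVL5, which elongates polyunsaturated fatty acids, was at 69.5, 114 and 109 FPKM, a log2 change of 0.70, and was the highest of the 33 genes in the oxamate-treated library. ELOVL6, which elongates palmitate, was at 17.7, 17.2 and 17.4 FPKM, the smallest spread of the fatty acid genes over the libraries.

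**Figure D3:**
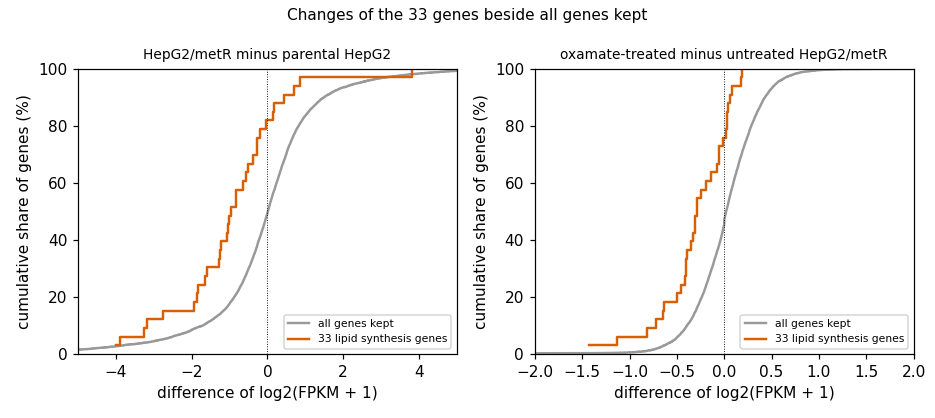
Cumulative share of genes (%) against the difference of log2(FPKM + 1), for the 33 genes (orange) and the 12192 genes kept (grey), with HepG2/metR minus parental HepG2 on the left and oxamate-treated minus untreated HepG2/metR on the right. The orange line lies to the left of the grey one over the middle of both panels and meets or crosses it at both ends of the left panel, with medians of -0.95 against 0.01 and of -0.29 against 0.02.

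The 6 genes lower with oxamate were FDPS of the mevalonate steps, HSD17B7 and EBP of the sterol steps, SREBF1 and INSIG1 of the controllers and SCD of the desaturases. FDPS, INSIG1 and SCD remained past 1.5-fold after scaling to a common total and when scaled to the 10 reference genes, whose own levels were lower with oxamate in 9 of 10 cases (median log2 change -0.26). On the reference genes FDPS was at -0.59, just past the threshold. On the deposited scale the 12 genes not called in either comparison were PMVK, LSS, NSDHL, SREBF2, SCAP, STARD4, ACACA, ACACB, FASN, FADS1, ELOVL5 and ELOVL6. Over the 33 genes, Pearson's r of log2(FPKM + 1) was 0.57 between parental and HepG2/metR cells and 0.97 between the pair of HepG2/metR libraries, against 0.64 and 0.97 over all genes kept. These correlations are across genes, which are not independent replicates.

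A wider list of 57 genes of the same pathways, which supply substrates, branch off or use the products, had 51 genes kept. In HepG2/metR 19 of these were 2-fold or more lower and 7 higher, with a median log2 change of -0.44, beside 17.6% lower and 16.6% higher among all genes kept. With oxamate 0 of the 51 were past 1.5-fold in either direction, beside 3.82% and 4.31% of all genes kept, the lowest being SLC25A1 at -0.55 and the highest GGPS1 at 0.46. Of the 8 genes that supply and activate fatty acids, 6 were lower in HepG2/metR. SLC25A1, the mitochondrial citrate carrier, was at 74.1, 23.9 and 16.1 FPKM, and ACSS2, which makes acetyl-CoA from acetate, at 23.9, 6.20 and 7.498 FPKM. ME1, which supplies NADPH for lipid synthesis, was called higher, being listed at 0 in parental cells and at 7.97 and 9.10 FPKM in the HepG2/metR libraries. AACS, which activates acetoacetate, had a log2 change of -0.55 and was not called. The acyl-CoA synthetases ACSL1, ACSL3, ACSL4 and ACSL5 were all lower in HepG2/metR, ACSL5 most, from 34.8 to 0.641 FPKM.

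Among 18 other genes of sterol regulation and transport, of which 17 were kept, 5 were at least 2-fold lower and 1 higher in HepG2/metR, beside 17.6% and 16.6% of all genes kept. The liver X receptor NR1H3 was at 9.34 FPKM in parental and 1.81 in HepG2/metR, its target ABCA1, the exporter of cholesterol, at 13.8 and 1.58 FPKM, and LIPA, the lysosomal acid lipase, at 62.6 and 29.6 FPKM. NR1H2, the second liver X receptor, was higher, at 12.3 and 30.1 FPKM. The other genes called lower were SOAT2, which esterifies cholesterol in the liver and intestine, at 22.2 FPKM in parental and 0.0908 in HepG2/metR, and C14orf1, a scaffold protein of the sterol enzymes, at 38.3 and 16.6 FPKM. MBTPS1 and MBTPS2, the proteases that release the sterol regulatory element-binding proteins, had log2 changes of -0.89 and 0.25 and were not called. Of the isoprenoid branches, FNTB, a farnesyltransferase subunit, and PDSS2, which makes the ubiquinone side chain, were past 2-fold lower (2 of 7, beside the same 17.6% of all genes kept). Of the 4 bile acid synthesis genes, CYP27A1 passed the filter, at 69.2 FPKM in parental and 0.130 in HepG2/metR.

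Glycerolipid synthesis genes, which put fatty acids into triglycerides and phospholipids, had 4 of 6 lower and 1 higher in HepG2/metR. Of all genes kept, 17.6% were lower and 16.6% higher. DGAT2, which completes triglycerides, was at 30.5, 1.28 and 1.77 FPKM. GPAM, the mitochondrial acyltransferase of the first step, was at 28.3, 3.56 and 3.88 FPKM. AGPAT2, the acyltransferase that makes phosphatidic acid, was at 2.10, 15.8 and 15.7 FPKM. DGAT1 and LPCAT3 were also called lower. The other elongation and desaturation genes had 4 called higher and 1 lower of the 9 kept, beside the same shares of all genes. ELOVL1, which makes very long saturated chains, was at 47.2, 102 and 79.5 FPKM, ELOVL7 at 3.54, 8.57 and 10.6 FPKM, and ELOVL2 was the one lower, at 36.5, 17.3 and 18.8 FPKM. None of the 3 mitochondrial fatty acid synthesis genes was called.

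SCD5 is the second delta-9 desaturase gene in humans, and in parental cells it was at 0.0423 FPKM beside 321 for SCD. In HepG2/metR it was at 19.1 FPKM, about level with SCD at 20.7, and in oxamate-treated cells it was at 17.8 FPKM, 2.52 times as high as SCD. The sum of both was 321, 39.8 and 24.8 FPKM. SOAT1, the widely expressed enzyme that esterifies cholesterol, was at 16.6, 23.3 and 21.2 FPKM while SOAT2 was nearly absent from the HepG2/metR libraries, so that SOAT1 made up 42.8% of the summed SOAT level in parental and 99.6% in HepG2/metR cells. FADS3 was the lower of the pair with FADS2 in parental cells and the higher in HepG2/metR, from 12.5% of their sum in parental to 82.9% in HepG2/metR. The pairs of SCD with SCD5 and with FASN, SOAT1 with SOAT2, FADS3 with FADS2 and FDPS with MVD were chosen after the values had been seen.

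**Figure D4:**
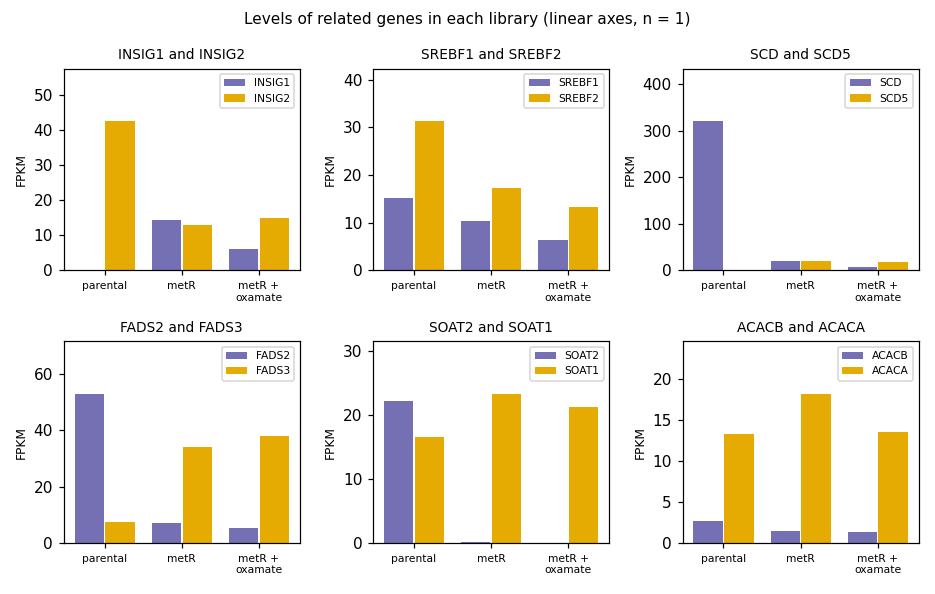
Levels in FPKM (linear axes from 0) of 6 pairs of related genes in each of the 3 libraries, with 1 bar per gene and library and no error bars since n = 1. INSIG1 and SCD5 have no visible bar in parental cells and SOAT2 almost none in the HepG2/metR libraries, FADS3 is the lower of its pair in parental cells alone, and SREBF1 stays below SREBF2 in all libraries.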

How the data were processed

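Total RNA was sequenced by the authors on an Illumina NextSeq instrument, 1 library per condition. The submitters' processing notes name STAR 2.5.1b, FastQC 0.11.5, Cufflinks 2.2.1 and hg19. The annotation and the filters are not given in the sources used here. The deposited values are on a log2 scale and have the form of log2(FPKM + 1), because back-transformed values above 1 FPKM needed no more than 6 significant digits (100% of them). They were used without further scaling. Of 25270 rows, 28 with dates in place of symbols or repeated symbols were not used, and 12192 genes averaging 1 FPKM or more were kept. The 33 genes and all gene lists were chosen with earlier results of these data known, and genes were named when in these lists. Relative depth was read from the modal between-library ratio among values below 0.15 FPKM. The scripts were tested on simulated data. Sequences are from RefSeq (GRCh38.p14) and overlaps from GENCODE 29, of another build than the files, so no positions of reads are given. Alternatives were 2 pseudocounts, 2 filters, 4 scalings and other fold thresholds. Python 3.11, numpy 2.4.6, scipy 1.17.1 and matplotlib 3.10.9 were used.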

Additional observations from a re-analysis of the deposited data

How the results depend on the processing

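The median log2 change of the 33 genes stayed below 0 under all 8 alternatives in both comparisons, from -1.26 to -0.81 in HepG2/metR and from -0.31 to -0.07 with oxamate. Genes at least 2-fold lower in HepG2/metR numbered 13 to 19, and 20 at 1.5-fold. At 1.5-fold 3 were higher. With oxamate 3 were lower after scaling to a common total, 3 when scaled to the 10 reference genes and 2 at 2-fold, while 1 (NPC1L1, under 0.1 FPKM) was higher with no pseudocount. The median log2 change of all genes, 0.01 and 0.02 as deposited, was -0.27 and 0.21 on the reference genes, 0.17 with oxamate on a common total and 0.15 in HepG2/metR on the upper quartile. Relative to all genes the members' median was then between -0.99 and -0.95 in HepG2/metR and between -0.31 and -0.27 with oxamate. Of all genes, 2858 were lower and 1571 higher in HepG2/metR after scaling to the reference genes, against 2146 and 2019 as deposited, and 3299 and 3258 at 1.5-fold. With oxamate, 466 lower and 525 higher became 607 and 1016 with a pseudocount of 0.1, 622 and 1109 with none, 192 and 1184 on a common total, 150 and 1434 on the reference genes, and 64 and 66 at 2-fold. No called change of the 33 genes reversed under these alternatives. With 1 library per condition, the variation between cultures was not measured, and no paired analysis was possible because there are no replicates.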
